A study of Mus musculus with 8 samples.

Results

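Fgf21 and Gdf15, the genes of the circulating stress factors often called mitokines, were taken by symbol from read counts per gene in 8 mouse hearts, by a rule that names them and applies no measured value, although the pair was proposed with earlier results of these data known. They are 2 of the 24411 gene symbols counted. The hearts came from C57BL/6 mice 1 week after transverse aortic constriction, in which a band around the aorta loads the left ventricle with pressure, and polyadenylated RNA of heart tissue was sequenced. In 4 mice the transcription factor Yin-Yang 1 (gene Yy1) had been knocked out in the heart (YY1 KO), and 4 MerCreMer mice were the controls. MerCreMer is a Cre recombinase flanked by modified oestrogen receptor domains, which cuts only when a ligand is given. The promoter that drives it, the ligand, and the age of the mice are not stated in the labels, and no unoperated heart was analysed here. The question for the 2 genes is whether their transcripts differ between the genotypes under pressure load, and how they vary from heart to heart beside Nppa, Nppb and Atf5.

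FGF21 is an endocrine fibroblast growth factor, made mostly by liver and also by stressed muscle, that acts on cells carrying an FGF receptor together with the co-receptor beta-Klotho (Klb). GDF15 is a distant member of the TGF-beta family that many stressed tissues release, and its receptor GFRAL, which signals through RET, is found mainly in the hindbrain. Both genes are known targets of the integrated stress response, in which kinases that sense mitochondrial or other stress phosphorylate eIF2-alpha and so raise the translation of the transcription factors ATF4, ATF5 and CHOP. Fgf21 is also a target of PPAR-alpha, and Gdf15 of p53. Nppa and Nppb encode the natriuretic peptides that heart muscle releases when its wall is stretched.

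In the mouse genome build mm10, Fgf21 lies on the minus strand of chr7:45613886-45615490, with 1 annotated transcript and 951 bases of exon. Gdf15 lies on the minus strand of chr8:70629393-70632456, with 2 annotated transcripts and 1852 bases of exon. No other annotated gene overlaps either, and the nearest protein-coding genes are Fut1, 1799 bases from Fgf21, and Lrrc25, 7910 bases from Gdf15, so reads of a neighbour are not mixed into their exons by the annotation. The 250 bases before the start of Fgf21 (minus strand of chr7:45615491-45615740) and before the outer start of Gdf15 (minus strand of chr8:70632457-70632706) are shown because the stress response, YY1 and PPAR-alpha act at promoters. They are RefSeq sequences of GRCm38.p6, the same build, and capitals mark matches to the motifs searched:
Fgf21 promoter: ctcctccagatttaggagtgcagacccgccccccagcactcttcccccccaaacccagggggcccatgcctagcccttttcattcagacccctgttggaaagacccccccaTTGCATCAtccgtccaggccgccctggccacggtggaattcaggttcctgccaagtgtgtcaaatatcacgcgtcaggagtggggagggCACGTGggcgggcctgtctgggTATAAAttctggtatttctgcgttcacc
Gdf15 promoter: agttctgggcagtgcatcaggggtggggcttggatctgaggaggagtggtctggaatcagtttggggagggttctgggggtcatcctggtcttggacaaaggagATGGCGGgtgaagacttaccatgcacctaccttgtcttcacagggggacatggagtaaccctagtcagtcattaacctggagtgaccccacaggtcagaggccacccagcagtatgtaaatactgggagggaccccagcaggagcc
The Fgf21 window holds an ATF4-C/EBP element (TGATGNAA, on the opposite strand) 139 to 132 bases before the start, an E-box (CACGTG) 50 to 45 bases before it and a TATA box (TATAAA) 28 to 23 bases before it. The outer Gdf15 window holds a YY1 core (ATGGCGG) 146 to 140 bases before the start. The 250 bases before the inner Gdf15 start, searched too but not shown, hold an E-box (CACGTG) 83 to 78 bases before that start. On either strand, TGATGNAA is present in 3.45%, CACGTG in 6.02%, TATAAA in 12.4% and ATGGCGG in 2.21% of 32851 RefSeq promoter windows of the same length. A PPAR element (AGGTCA, any base, then AGGTCA again) and an AP-1 site (TGANTCA), which are in 0.0335% and 6.75% of windows, matched in none of the windows of Fgf21 and Gdf15. No matches overlapped one another, the motifs were chosen after the promoters had been seen, and a match is a run of letters, not a measured binding site.

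The libraries held 14582605 to 16000455 reads in genes. The study's text describes all mice as male, but 4 libraries, controls 1 and 4 and YY1 KO hearts 1 and 4, held 2156 to 3512 reads of Xist, the RNA of the inactive X chromosome, and 0 to 2 reads over 4 Y-linked genes. The other 4 held 0 to 6 Xist reads and 2519 to 3018 Y-linked reads. Each genotype thus has 2 Xist-positive and 2 Y-positive hearts, and results are given for all 8 and for the Y-positive hearts, where only 2 hearts a genotype remain. Yy1 fell from 36.1 ± 1.58 CPM (counts per 1000000 reads in genes; SD, n = 4) in controls to 21.0 ± 2.55 (n = 4) in YY1 KO hearts, and every YY1 KO heart was below every control. Cardiomyocyte markers (9 genes) summed to 75778 to 102280 CPM in controls and 50148 to 71796 in YY1 KO hearts, without overlap. Of the 9, 3 were lower and 0 higher, against 17.3% and 21.6% of all tested genes. Of tissues known for Fgf21, markers of liver, fat and exocrine pancreas were near 0. The 6 hepatocyte genes summed to 0.0 to 0.423 CPM in controls and 0.297 to 2.51 in YY1 KO hearts, with Fgb at 0 reads throughout. The 7 adipocyte genes summed to 0.0632 to 1.39 and 0.65 to 2.37 CPM, and the 6 genes of the exocrine pancreas to at most 0.884 CPM. Skeletal muscle markers (8 genes, Acta1 among them) were not near 0. They summed to 139.59 to 5311.6 CPM in controls and 1006.7 to 2256.4 in YY1 KO hearts, with Myh4 at 0 reads throughout.

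Fgf21 was barely detected in either genotype. Controls 1 to 4 held 0, 1, 4 and 0 reads of it, and YY1 KO hearts 1 to 4 held 1, 0, 0 and 1. That is 7 reads in all, 5 in controls and 2 in YY1 KO hearts, and 28.6% of them lay on the strand opposite to the gene. Pooled over 4 libraries, the level was 0.0835 CPM in controls (exact Poisson 95% interval 0.0271 to 0.195) and 0.0317 CPM in YY1 KO hearts (0.00384 to 0.115), intervals that overlap and cover counting error only. In single libraries 3 reads equal 0.178 to 0.214 CPM, and only control 3, at 0.253 CPM, was above that. Fgf21 was therefore among the genes too low for the fit across genes, and no fold change is given for it. An exact two-sided permutation test over the 70 assignments of the 8 hearts, on log2 CPM, gave p = 0.543, where the smallest possible is 0.0286. A fit with no filter on low counts gave an edgeR adjusted p of 0.481. A difference between the genotypes was thus not detectable at this depth. Among all counted symbols, 33.9% had no more reads than Fgf21, and 5743 had none.

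Gdf15 was measured in every heart, and its level varied more between hearts of 1 genotype than between the genotypes. Controls 1 to 4 had 1.9, 3.77, 10.6 and 8.22 CPM, and YY1 KO hearts 1 to 4 had 23.1, 2.85, 6.04 and 19.2 CPM, from 27 to 389 reads. The genotypes overlapped: YY1 KO hearts 1 and 4 stood above all controls, while hearts 2 and 3 fell within the control range. The mean was 6.13 ± 4.0 CPM in controls and 12.8 ± 9.86 in YY1 KO hearts (SD, n = 4 each), a ratio of 2.09. On the log2 scale the fitted difference, YY1 KO minus control, was 1.06 ± 0.68 (SE), with a 95% confidence interval from -0.48 to 2.59 and an edgeR adjusted p of 0.245. The exact two-sided permutation test gave p = 0.343. Gdf15 was thus not among the genes called at an adjusted p under 0.05, which made up 38.9% of the 13506 genes tested (21.6% higher and 17.3% lower in YY1 KO hearts). Its interval covers no difference as well as a rise of the size seen for Atf5.

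**Figure D1:**
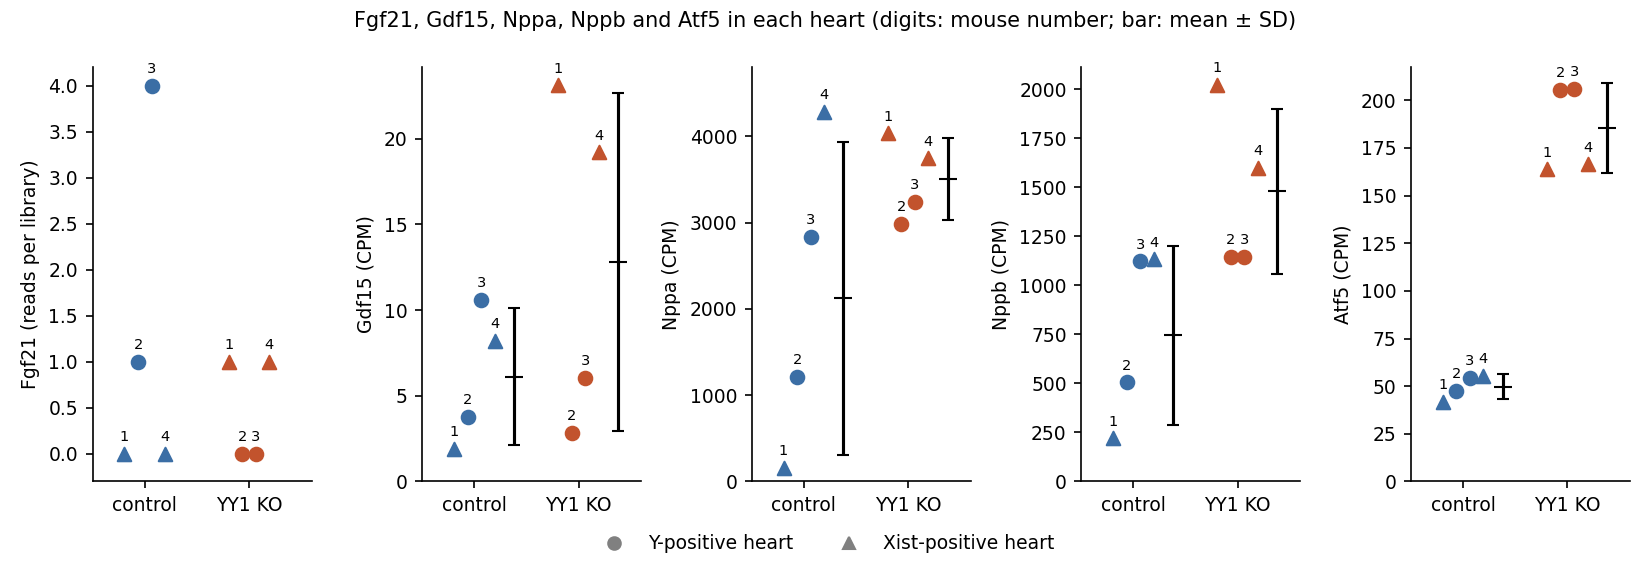
Level of each gene in each heart, as reads per library for Fgf21 and as CPM for Gdf15, Nppa, Nppb and Atf5. Digits give the mouse number, triangles are Xist-positive and circles Y-positive hearts, and the black bar is the mean ± SD of 4 hearts. Gdf15 in YY1 KO hearts 1 and 4 (23.1 and 19.2 CPM) lies above all controls, whereas Atf5 separates the genotypes completely.

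The spread of Gdf15 was wide for a gene of its level. The highest heart had 5.58 times the lowest in controls and 8.09 times in YY1 KO hearts. The SD of log2 CPM was 1.09 in controls and 1.4 in YY1 KO hearts, against a median of 0.2 over tested genes in each genotype. Of the 3547 genes of like level, 98.1% had a smaller SD in controls and 99.5% in YY1 KO hearts.

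The 2 YY1 KO hearts high in Gdf15 were the Xist-positive ones. In Y-positive hearts the controls averaged 7.19 CPM (3.77 and 10.6) and the YY1 KO hearts 4.45 (2.85 and 6.04), a log2 difference of -0.71 ± 0.57 with an edgeR adjusted p of 0.389. In these hearts 24.5% of 13626 tested genes passed, 12.7% as higher and 11.8% as lower in YY1 KO hearts. In Xist-positive hearts the controls averaged 5.06 CPM (1.9 and 8.22) and the YY1 KO hearts 21.1 (23.1 and 19.2), a log2 difference of 2.05 ± 0.65 with an adjusted p of 0.154. The difference between these effects was 2.75 ± 1.02 on the log2 scale (95% confidence interval 0.32 to 5.17), with an unadjusted edgeR p of 0.0315 and an adjusted p of 0.812. In that test 5.2% of the 13506 genes had an unadjusted p under 0.05 and 0 passed after adjustment, so Gdf15 is not shown to respond differently in the 2 classes. With genotype as a term, Gdf15 was 0.89 ± 0.73 higher on the log2 scale in Xist-positive hearts, with an adjusted p of 1.0, in a test that 0.0444% of genes passed. These classes were read from the data, and each cell of the comparison holds 2 hearts. In the Xist-positive hearts alone 0 of 13671 genes passed after adjustment, while 25.2% had an unadjusted p under 0.05.

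Atf5, the stress response factor named beside the mitokines, rose in every YY1 KO heart. Controls 1 to 4 had 41.8, 47.5, 54.5 and 55.4 CPM, and YY1 KO hearts 1 to 4 had 163.7, 205.44, 206.14 and 166.4 CPM. The groups did not overlap, as was so for 38.3% of tested genes, and the log2 difference was 1.9 ± 0.13 (edgeR adjusted p = 0.000109). In the Y-positive hearts alone it was 1.99 ± 0.14 (adjusted p = 0.00184).

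Nppb and Nppa were higher on average in YY1 KO hearts and neither passed the test. Nppb had 219.59, 504.92, 1122.4 and 1133.8 CPM in controls 1 to 4 and 2020.9, 1145.3, 1145.5 and 1600.1 in YY1 KO hearts. These groups did not overlap, though control 4 and YY1 KO hearts 2 and 3 lay close together, and the log2 difference was 0.99 ± 0.46 (adjusted p = 0.121; exact permutation p = 0.0286, the smallest possible). Nppa had 159.1, 1212.6, 2838.6 and 4283.2 CPM in controls and 4033.5, 2989.0, 3240.6 and 3747.9 in YY1 KO hearts, which overlap, with a log2 difference of 0.72 ± 0.71 (adjusted p = 0.447; exact permutation p = 0.257). Control 1 was the lowest of all hearts for Nppa, Nppb, Atf5 and Gdf15. In the Y-positive hearts the log2 differences were 0.48 ± 0.37 for Nppb and 0.6 ± 0.4 for Nppa (adjusted p = 0.372 and 0.303).

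Within each genotype the hearts rank almost alike for Gdf15 and the natriuretic peptides. From high to low, YY1 KO hearts ran 1, 4, 3, 2 for Gdf15, Nppa and Nppb. Nppb was nearly equal in YY1 KO hearts 3 and 2 (1145.5 and 1145.3 CPM), and their order for it, which also enters the rho below, rests on that gap. The highest Nppa among YY1 KO hearts was 1.35 times the lowest. Controls ran 3, 4, 2, 1 for Gdf15 and 4, 3, 2, 1 for Nppa and Nppb. For Atf5 the controls also ran 4, 3, 2, 1, close to Gdf15, but the YY1 KO hearts ran 3, 2, 4, 1, with Gdf15's highest heart at the bottom.

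These relations were measured on log2 CPM after subtraction of each genotype's mean, over 8 hearts, with exact permutation p-values from all orders within genotypes and adjustment over 7 relations. Gdf15 and Nppb had a Pearson r of 0.81 (exact permutation p = 0.00521, adjusted 0.0304) and a Spearman rho of 0.81 (p = 0.0139, adjusted 0.0486). Gdf15 and Nppa had an r of 0.65 (exact permutation p = 0.00868, adjusted 0.0304) and a rho of 0.81 (p = 0.0139, adjusted 0.0486). Without controls 1 and 4, the hearts farthest from the median of either peptide, r was 0.85 with Nppb (exact permutation p = 0.0625 over 48 orders) and 0.7 with Nppa (p = 0.0208). These 2 p-values are not adjusted over the 7 relations. Even so, the relation to Nppb no longer passes without those hearts, and that to Nppa is not shown to pass. Neither r is lower than over 8 hearts. When any 1 heart was left out, r stayed between 0.77 and 0.91 with Nppb and between 0.56 and 0.78 with Nppa, but neither relation passed adjustment over the 7 in any of these 8 cases (adjusted exact permutation p from 0.0729 to 0.146 and from 0.0729 to 0.17). Centred also on sex chromosome class, r was 0.91 with Nppb and 0.87 with Nppa, each with an exact permutation p of 0.125, the smallest that the 16 orders allow.

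Gdf15 and Atf5 had an r of -0.09 (exact permutation p = 0.873, adjusted 0.965) and a rho of -0.19 (p = 0.688), and an r of -0.4 without control 1 and YY1 KO heart 1 (p = 0.528). The sign of this r was not stable: scaled by library size alone it was 0.22, and centred also on sex chromosome class it was 0.9 (exact permutation p = 0.375). The relations of Fgf21 rest on 7 reads and were not detectable: r was 0.4 with Nppa, 0.53 with Nppb, 0.01 with Atf5 and 0.62 with Gdf15, with adjusted exact permutation p of 0.739, 0.739, 0.965 and 0.259. Fgf21's rho was 0.39 with Nppa, 0.39 with Nppb, -0.24 with Atf5 and 0.69 with Gdf15 (exact permutation p = 0.465, 0.465, 0.667 and 0.0556). Without the 2 farthest hearts its r was 0.93, 0.97, -0.31 and 0.49 in the same order (exact permutation p = 0.125, 0.167, 0.5 and 0.389).

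**Figure D2:**
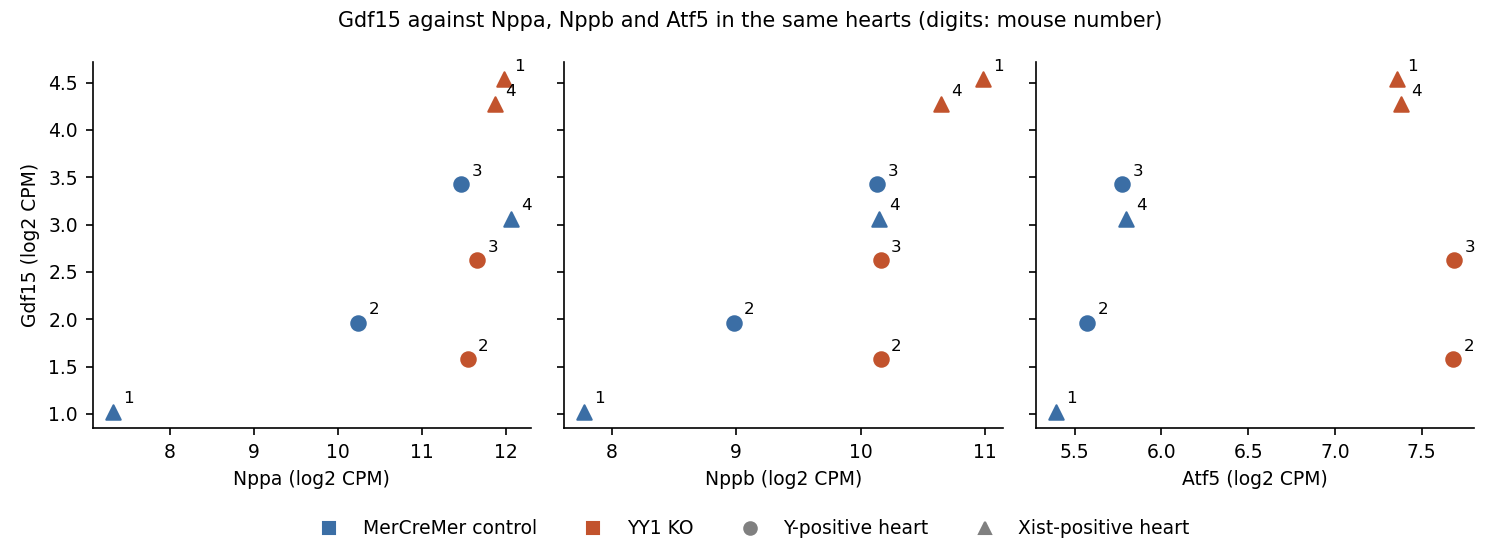
Gdf15 (vertical axis) against Nppa, Nppb and Atf5 (horizontal axes) in the same 8 hearts, all as log2 CPM with a prior count of 2. Colours give the genotype, shapes the sex chromosome class and digits the mouse number. Gdf15 climbs with Nppb in both genotypes (r = 0.81 after centring). With Atf5 it climbs among controls but not among YY1 KO hearts, and r over both is -0.09.

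Set against Nppb in the same heart, Gdf15 was even among controls and uneven among YY1 KO hearts, and set against Nppa it was uneven in both. Per 1000 CPM of Nppb, controls 1 to 4 had 8.66, 7.47, 9.46 and 7.25 CPM of Gdf15, and YY1 KO hearts 1 to 4 had 11.4, 2.49, 5.27 and 12. YY1 KO hearts 2 and 3 were below all controls by this ratio and hearts 1 and 4 above them. Per 1000 CPM of Nppa, controls 1 to 4 had 12, 3.11, 3.74 and 1.92 CPM of Gdf15 and YY1 KO hearts 5.72, 0.954, 1.86 and 5.12, and the genotypes overlapped, with control 1 the highest. Per 100 CPM of Atf5, Gdf15 was 4.55, 7.95, 19.5 and 14.8 CPM in controls and 14.1, 1.39, 2.93 and 11.5 in YY1 KO hearts, so no YY1 KO heart exceeded the highest controls.

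The 5 genes most like Gdf15 in pattern over the 8 hearts included both chains of type I collagen. By root mean square difference of centred log2 CPM among 12202 protein-coding genes, they were Prrx2 (0.3), a homeobox factor of mesenchymal cells, Adamts8 (0.39), a secreted metalloprotease, Col1a1 (0.44) and Col1a2 (0.47), the collagen chains, and Fstl1 (0.46), a secreted glycoprotein. Col1a1 had 144.24, 303.87, 621.47 and 649.2 CPM in controls 1 to 4 and 832.29, 169.99, 482.83 and 712.37 in YY1 KO hearts, low and high in nearly the same hearts as Gdf15. None of the 5 passed between genotypes (edgeR adjusted p from 0.377 for Adamts8 to 0.631 for Col1a1). By the same measure Nppb ranked 81 (0.67), Nppa 2091 (1.07) and Atf5 7040 (1.22).

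Fibroblast markers (8 genes, Col1a1 and Col1a2 among them) moved with Gdf15 from heart to heart. They summed to 1011.1, 1642.9, 3063.1 and 2929.9 CPM in controls and 4458.8, 1786.8, 2775.6 and 3425.9 in YY1 KO hearts, the same order within each genotype as Gdf15. Of these 8 genes, 1 passed the test as higher and 0 as lower, against 21.6% and 17.3% of all tested genes, and no fibroblast marker was at 0. Per 1000 CPM of these markers, Gdf15 was 1.88 to 3.46 CPM in controls and 1.6 to 5.61 in YY1 KO hearts. Macrophage markers (8 genes) summed to 270.3 to 457.73 CPM in controls and 312.17 to 433.42 in YY1 KO hearts, in the order of Gdf15 among controls (3, 4, 2, 1) and not among YY1 KO hearts (1, 3, 2, 4). The control order 3, 4, 2, 1 was also that of the endothelial, lymphocyte, skeletal muscle and pancreas marker sums, none of which shared the YY1 KO order of Gdf15. Cardiomyocyte markers ran 1, 2, 4, 3 in controls and 2, 3, 4, 1 in YY1 KO hearts, the highest control and the lowest YY1 KO heart being number 1. The part of the cell makeup in the level of Gdf15 was not tested, and in bulk tissue more cells of a type and more RNA per cell cannot be told apart.

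**Figure D3:**
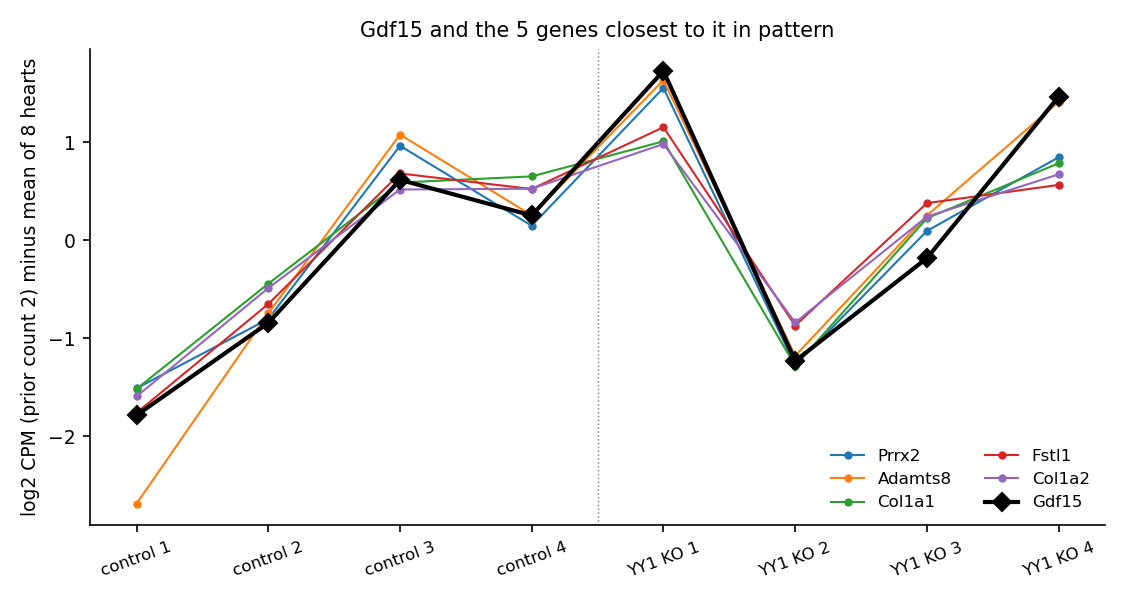
Log2 CPM of Gdf15 (black) and of the 5 genes closest to it, each minus its own mean over the 8 hearts, for controls 1 to 4 and YY1 KO hearts 1 to 4. Lines join the hearts only to trace each gene. All 6 genes are low in control 1 and YY1 KO heart 2 and high in YY1 KO hearts 1 and 4.

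The receptor side of FGF21 was present in heart as FGF receptor 1 with hardly any co-receptor. Klb had 14 reads in all, 4 in controls and 10 in YY1 KO hearts, and 64.3% of them lay on the opposite strand. Fgfr1 rose from 54.3 ± 10.4 to 85.3 ± 5.85 CPM (log2 difference 0.65 ± 0.14, edgeR adjusted p = 0.00553), from 42.1, 49.1, 61.7 and 64.1 CPM in controls to 92.6, 83.2, 86.7 and 78.7, without overlap. Fgfr2 rose from 0.578 to 1.55 CPM (1.41 ± 0.41, adjusted p = 0.024), a call that was lost without control 1, control 2, YY1 KO heart 1 or YY1 KO heart 3 (adjusted p from 0.0521 to 0.0606) and in the Y-positive hearts (0.109). Fgfr3 had 16.8 and 28.0 CPM and did not pass (adjusted p = 0.0662), and Fgfr4 had 15 reads. Of 6 tested members of this list, 2 were higher and 0 lower, against 21.6% and 17.3% of all tested genes. Their median log2 difference was 0.32 against 0.013 for all tested genes.

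Of 16 tested genes that respond to FGF receptors and ERK, 3 were higher and 5 lower (median log2 difference -0.32), against 21.6% and 17.3% of all tested genes, and 2 or 3 were lower without any of controls 2, 3 or 4 or YY1 KO hearts 2 or 3. Etv5, an ERK-induced transcription factor, rose from 19.7 to 74.5 CPM (1.92 ± 0.31, edgeR adjusted p = 0.00171), and Ier3, an immediate early gene, rose by 1.2 ± 0.22 (0.00307). Spred2, an inhibitor of the pathway, had a log2 difference of -0.59 ± 0.11 (0.00403), and Phlda1 one of -0.76 ± 0.18 (0.0106).

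The GDF15 receptor gene Gfral had 0 reads in all 8 hearts, which allows a level of up to 0.0616 CPM in controls and 0.0585 in YY1 KO hearts (exact Poisson 95% limits). Its partner Ret, the receptor tyrosine kinase, was present and fell from 10.1 to 5.34 CPM (log2 difference -0.92 ± 0.24, edgeR adjusted p = 0.0146), with controls at 8.91 to 12 and YY1 KO hearts at 3.03 to 6.76. In the Y-positive hearts the difference in Ret was -0.68 (adjusted p = 0.08). Furin, a protease that matures proteins of the TGF-beta family, rose from 160.87 to 211.37 CPM (0.39 ± 0.14, adjusted p = 0.0467), but passed no longer without any of controls 1, 2 or 3 or YY1 KO hearts 1, 2 or 3 (adjusted p from 0.052 to 0.129), or with RLE scaling (0.0633). Of 7 tested genes of receptor and processing, 1 was higher and 1 lower, with a median of 0.05, against 21.6% and 17.3% of all tested genes. Without YY1 KO heart 4, 3 were lower.

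Of 10 tested genes that sense stress or act at eIF2-alpha, 1 was higher and 2 lower (21.6% and 17.3% over all genes). Their median log2 difference was -0.17. Besides sensors and their relays, the list holds eIF2-alpha itself (Eif2s1), the phosphatase subunits Ppp1r15a and Ppp1r15b, and Nck1. Dele1, which carries the mitochondrial stress signal to the kinase HRI (Eif2ak1), fell from 150.32 ± 27.5 to 68.9 ± 12 CPM (-1.13 ± 0.16, edgeR adjusted p = 0.00109), without overlap. Eif2ak1 itself had 43.4 and 43.9 CPM (adjusted p = 0.901). Ppp1r15a, the stress-induced eIF2-alpha phosphatase subunit, rose by 0.73 ± 0.18 (0.0114). Its constitutive counterpart Ppp1r15b had a difference of -0.37 ± 0.11 (0.0243), which no longer passed without any of controls 2, 3 or 4 or YY1 KO hearts 1, 2 or 3 (adjusted p from 0.051 to 0.0601), or with library size alone as scaling (0.0778). Without control 4, 2 genes of this list were higher.

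Of the 29 tested genes of the integrated stress response, Atf5 among them, 19 were higher in YY1 KO hearts and 0 lower, with a median log2 difference of 0.92, and for 16 of the 19 the groups did not overlap. Of all tested genes 21.6% were higher, 17.3% lower and 38.3% without overlap. In the Y-positive hearts 16 were higher and 0 lower, against 12.7% and 11.8% of all tested genes there. Without control 3, 1 was lower. Trib3, a pseudokinase induced by CHOP, rose from 4.24 to 46.0 CPM (3.43 ± 0.27), with controls at 2.96 to 5.5 and YY1 KO hearts at 29.1 to 55.0. Asns, asparagine synthetase, rose from 5.29 to 61.6 CPM (3.53 ± 0.33), and Mthfd2, a mitochondrial folate enzyme, rose by 3.41 ± 0.38. Atf4 rose by 0.51 ± 0.14 (edgeR adjusted p = 0.0218), the smallest rise of the 19. Of the 19, 10 had a larger log2 difference than the 1.06 of Gdf15. All 19 were more precisely measured: their standard errors ran from 0.13 to 0.43, against 0.68 for Gdf15. The median SD of their log2 CPM was 0.39 in controls and 0.29 in YY1 KO hearts, and the highest was 1.01 and 0.79, against 1.09 and 1.4 for Gdf15.

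**Figure D4:**
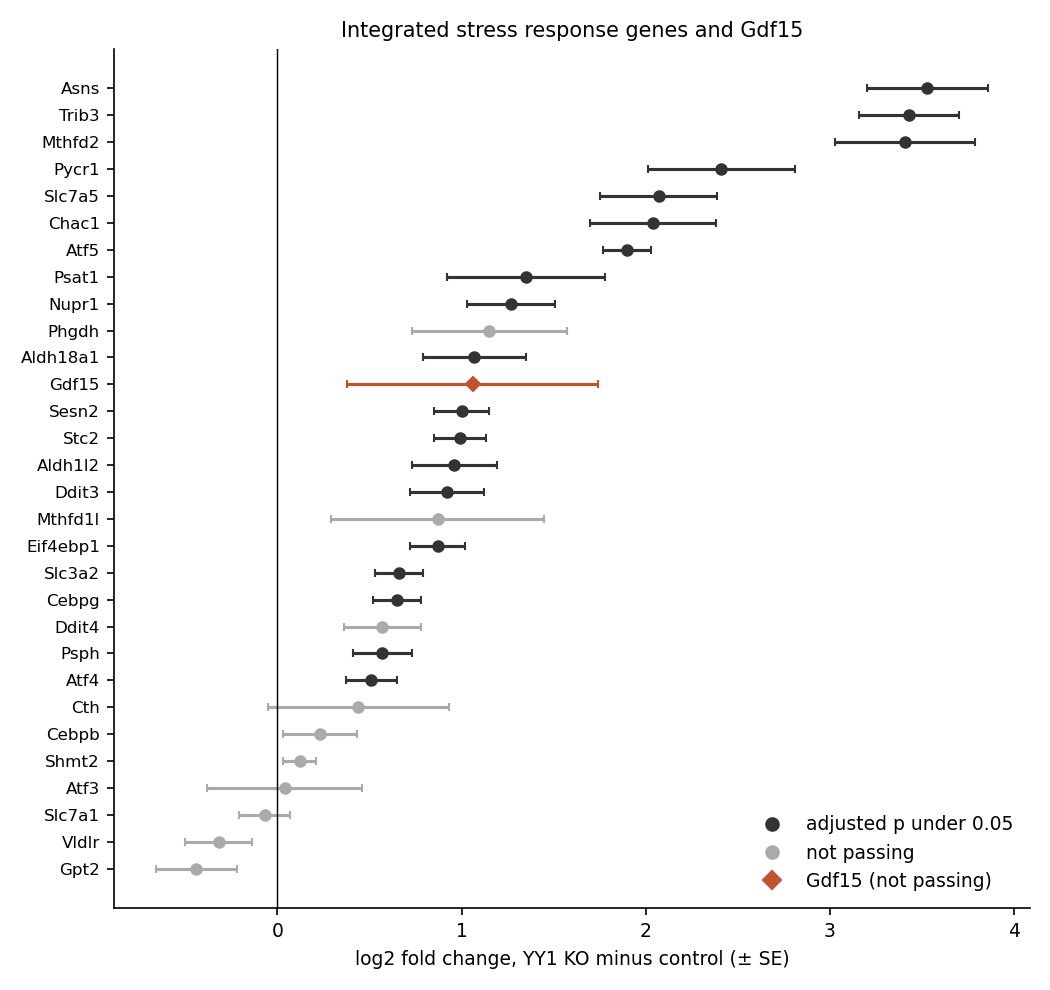
Log2 difference between YY1 KO and control hearts (± SE) for the 29 tested genes of the integrated stress response and for Gdf15 (diamond), ordered by size. Black points passed at an adjusted p under 0.05. Gdf15 (1.06 ± 0.68) lies in the middle of the genes that rose, with a wider error bar than any of them.

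Ppara and Trp53, the genes of the other regulators ascribed to Fgf21 and Gdf15, did not pass (log2 difference -0.78 and -0.11, edgeR adjusted p = 0.0691 and 0.744). Of 17 tested PPAR-alpha targets and partners, 0 were higher and 7 lower (median log2 difference -0.82), against 21.6% and 17.3% of all tested genes. In the Y-positive hearts 2 were lower, where 11.8% of all tested genes were lower, so there the list was near that share. Plin5, a lipid droplet protein, had a difference of -2.4 ± 0.42 (edgeR adjusted p = 0.00266), and Ucp3, a mitochondrial carrier, -2.81 ± 0.58 (0.00543). Fabp3, the heart fatty acid binding protein, had -0.91 ± 0.18 (0.00393) and Acot1, an acyl-CoA thioesterase, -3.0 ± 0.7 (0.00909), but in the Y-positive hearts neither passed (adjusted p = 0.065 and 0.103). The cardiomyocyte marker sum, given above, was also lower in YY1 KO hearts, and its part in these falls was not tested. The few reads of Fgf21 allow no comparison with them.

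Of 22 tested p53 targets, 8 were higher and 2 lower (median 0.41), against 21.6% and 17.3% of all tested genes. In the Y-positive hearts 4 were higher and 1 lower, against 12.7% and 11.8% of all tested genes there. Cdkn1a, the cell cycle inhibitor p21, rose from 125.64 to 531.68 CPM (2.08 ± 0.26, edgeR adjusted p = 0.000697), with controls at 77.3 to 197.05 and YY1 KO hearts at 419.53 to 579.29. Trp53inp1 rose by 1.65 ± 0.21 (0.000656), Sesn2 by 1.0 ± 0.15 (0.00139) and Mdm2, the p53 ubiquitin ligase, by 0.44 ± 0.08 (0.00306). Sesn2, which is also on the stress response list, and Mdm2 did not pass in the Y-positive hearts (adjusted p = 0.0535 and 0.0948). Without control 2, 1 p53 target was lower. Gdf15, a target of the same factor, did not pass, as given above.

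Mitochondrial chaperones and proteases mark stress of protein folding inside mitochondria. Their list had 2 members higher and 6 lower of 17 tested (median -0.04), against 21.6% and 17.3% of all genes. The 17 include Hspa14, whose product is a cytosolic chaperone. Lonp1, a matrix protease, rose by 0.73 ± 0.1 (edgeR adjusted p = 0.00109), while the chaperonin genes Hspd1 and Hspe1 had differences of -0.72 ± 0.16 (0.00803) and -0.65 ± 0.14 (0.00584), and Grpel1, a co-chaperone, one of -0.56 ± 0.1 (0.00287). Without any of controls 2 or 4 or YY1 KO hearts 1 or 3, 1 was higher. In the Y-positive hearts 1 was higher too, against 12.7% of all tested genes there.

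Within its own family Fgf21 had the fewest reads, 7, of the listed genes with any read, next to 9 for Fgf22. The list includes Fgf11, Fgf12, Fgf13 and Fgf14, which encode intracellular factors and not secreted ligands. Per kilobase of exon, Fgf1 led with 36.3 CPM in controls and 26.9 in YY1 KO hearts, followed in controls by Fgf13 (13.6 and 13.1), Fgf16 (11.1 and 5.83) and Fgf18 (4.89 and 1.87), while Fgf21 had 0.0851 and 0.032. Of 9 tested FGF family genes, 0 were higher and 3 lower (median log2 difference -0.43), against 21.6% and 17.3% of all tested genes. The 3 were Fgf11 (-0.82 ± 0.14, edgeR adjusted p = 0.00211), Fgf18 (-1.38 ± 0.27, 0.00444) and Fgf16 (-0.92 ± 0.28, 0.027). The call of Fgf16 was lost without control 2 or YY1 KO hearts 1, 2 or 3 (adjusted p from 0.063 to 0.0709), in the Y-positive hearts (0.0836) and with limma-voom (0.0561). Fgf14 (0.64, adjusted p = 0.0833) did not pass, and 65.1% of its reads lay on the opposite strand. With control 1 left out 2 FGF family genes were higher, and 1 with control 2, control 3 or YY1 KO heart 2 left out.

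Per kilobase of exon, Gdf15 was the fifth of the listed GDF, activin and BMP family genes in controls. It had 3.31 CPM there and 6.91 in YY1 KO hearts. Bmp1 (10.3 in controls), Bmp6 (8.23), Inha (4.51) and Bmp4 (3.43) stood above Gdf15. Bmp1, despite its name, encodes a metalloprotease and not a ligand, and it is counted in this list. Of 15 tested, 3 were higher and 4 lower (median 0.27), against 21.6% and 17.3% of all tested genes. In the Y-positive hearts they were 3 and 2, against 12.7% and 11.8% of all tested genes there. Inha, the inhibin alpha subunit, rose from 5.18 to 8.59 CPM in controls to 14.5 to 20.5 in YY1 KO hearts (1.36 ± 0.19, edgeR adjusted p = 0.000967), and Inhbb, the activin beta B subunit, by 1.42 ± 0.33 (0.00894). Bmp5 had a difference of -1.27 ± 0.29 (0.00872), which did not pass in the Y-positive hearts (adjusted p = 0.133), and Bmp7 one of -2.25 ± 0.55 (0.0117).

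**Figure D5:**
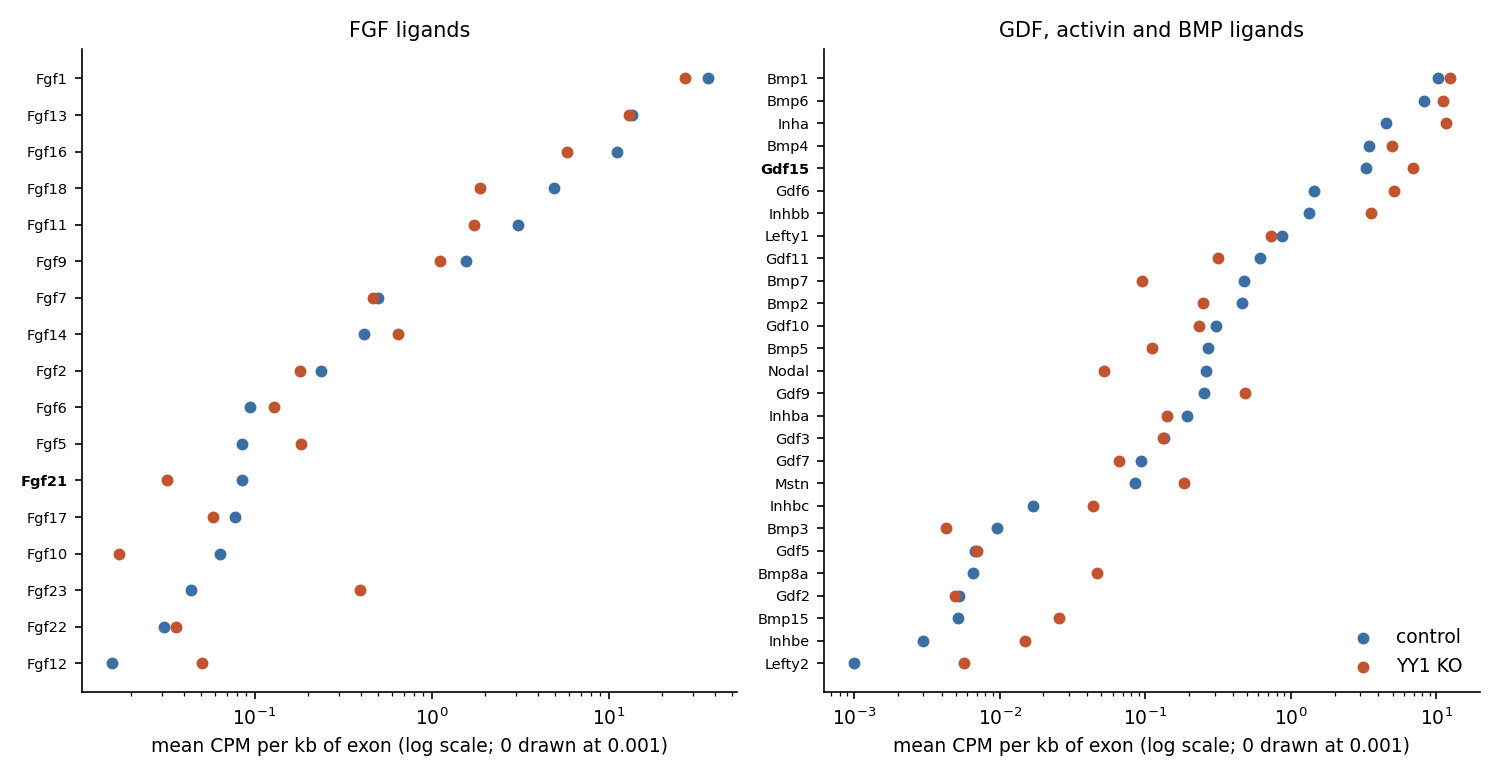
Mean level per kilobase of exon (CPM per kb, log axis) in control and YY1 KO hearts. Shown are the listed FGF family genes (left) and GDF, activin and BMP family genes (right) that had any read. Both lists include genes that do not encode receptor ligands, named in the text. A mean of 0 is drawn at 0.001. Fgf21 (0.0851 and 0.032) lies in the lower part of its family and Gdf15 (3.31 and 6.91) near the top of its own.

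Of 13 tested genes of wall stress and hypertrophy, Nppa and Nppb included, 2 were higher and 0 lower (median 0.6). Of all tested genes 21.6% were higher and 17.3% lower. Without control 1 or control 3, 4 genes of this list were higher. Myl4, the atrial myosin light chain, rose by 2.48 ± 0.61 (edgeR adjusted p = 0.012). Myh7, the slow myosin heavy chain, rose by 1.75 ± 0.5 (0.0217), but did not pass in the Y-positive hearts (0.0596) or without control 2 or YY1 KO heart 2 (0.0615 and 0.0558). In the Y-positive hearts 1 gene was higher and 1 lower, against 12.7% and 11.8% of all tested genes there.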

How the data were processed

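The authors deposited, for each of 8 hearts, a table of raw read counts per gene symbol, and the counts irrespective of strand were used. The submitters' processing notes name Trimmomatic, STAR and mm10, without versions, and name no gene annotation. Reads outside genes (33.016 to 38.906% of each library) were left out. Genes with at least 10 reads (0.648 CPM) in 4 libraries went into a quasi-likelihood F test of edgeR 4.0.16 (robust, TMM factors, genotype alone in the model, Benjamini-Hochberg adjustment). This kept 13506 genes with 99.93% of gene reads. Levels are CPM with TMM-scaled library sizes, and log2 CPM has a prior count of 2. Fgf21 failed the filter, so its main value is the difference in mean CPM. On simulated counts for 13399 genes in this comparison, 69.7% of genes changed 2-fold and 92.9% of those changed 4-fold were recovered, and 7% of calls were false. The changed genes were drawn at random, and far fewer were changed than passed in the data. These averages do not give the recovery of a gene as variable as Gdf15, whose SD of log2 CPM was 1.09 in controls and 1.4 in YY1 KO hearts. Replicates are separate mice per the labels. Libraries of a genotype differed pairwise by more than counting error (chi-square over its degrees of freedom 14.57 to 96.7).

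Members and lists were chosen with earlier results of these data known. Named genes are the members, Nppa, Nppb, Atf5, Yy1, up to 4 members of each of 12 lists with the smallest p, the receptors, and the 5 genes most alike to Gdf15. The genes most alike to Fgf21 are not given, because a profile of 7 reads is noise. The other genes printed (Eif2ak1, Ppara, Trp53 and family members in the per-length order) were chosen after their values were seen. Positions are from GENCODE M21. The alternatives were RLE, upper quartile and library size scaling, DESeq2 1.42.0, limma 3.58.1 voom, other filters, stranded counts, a replicate block, a sex chromosome term, the Y-positive hearts alone, and leaving out each library. The Xist-positive hearts alone and the test of interaction were added after the data were seen. The software was R 4.3.3, Python 3.11.15 with scipy 1.17.1, and matplotlib 3.10.9.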

Additional observations from a re-analysis of the deposited data

How the results depend on the processing

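Gdf15 did not pass under any of the 20 alternatives. Its log2 difference of 1.06 ranged from 0.61 to 1.46 when 1 library was left out (adjusted p from 0.105 to 0.526). It turned to -0.71 in the Y-positive hearts alone and was 2.05 in the Xist-positive hearts alone. With DESeq2 it was 1.04 (adjusted p = 0.294), with limma-voom 0.9 (0.391) and with a sex chromosome term 0.72 (0.464). The difference in mean CPM of Fgf21, -0.051, ranged from -0.078 to 0.0067 when 1 library was left out, turning sign without control 3, and was 0.061 in the Xist-positive hearts alone, all from 7 reads.

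Genes higher over the whole table numbered 2911, and 2192 to 2905 when 1 library was left out. They numbered 1730 in the Y-positive hearts and 0 in the Xist-positive hearts. Genes lower numbered 2337, and 1668 to 2439 when 1 library was left out, and 0 in the Xist-positive hearts, where each genotype has 2 hearts. With the replicate block, 4026 genes passed against 5248 without it, and Gdf15 was at 0.83 (adjusted p = 0.429). Deviations from the group means in same-numbered hearts had r of -0.46, 0.34, -0.06 and 0.27, and differently numbered hearts ran from -0.42 to 0.48. Same-numbered hearts also share their sex chromosome class, hearts 1 and 4 being Xist-positive and 2 and 3 Y-positive in both genotypes. Whether the numbers pair the hearts cannot be told from these values.

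Of the relations, Gdf15 with Nppa ranged from 0.56 to 0.78 and with Nppb from 0.77 to 0.91 when 1 heart was left out (exact permutation p at most 0.0486 and 0.0208), and in 0 of 8 cases did either pass adjustment over the 7 relations (adjusted p from 0.0729 to 0.17). Nor did they pass when centred on sex chromosome class (0.87 and 0.91, exact permutation p = 0.125, the smallest possible). Gdf15 with Atf5 ranged from -0.58 to 0.22, and was 0.22 with library size alone and 0.9 centred on class. Fgf21 ranged from -0.08 to 0.88 with Nppa, from 0.27 to 0.98 with Nppb, from -0.57 to 0.24 with Atf5 and from 0.51 to 0.86 with Gdf15. Its relation to Atf5 was -0.11 with a prior count of 0.5. The log2 difference of Fgf14 turned to -1.42 in stranded counts (adjusted p = 0.0756). Where a value above turned sign or lost its call, the cause was not tested. Across scalings the median log2 difference of all genes ran from -0.016 to 0.073.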

Other observations

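Fgf23, like Fgf21 an endocrine FGF and named here after its values were seen, had 0, 0, 4 and 1 reads in controls 1 to 4 and 17, 3, 15 and 11 in YY1 KO hearts 1 to 4. Of its reads 1 of 51 lay on the opposite strand. The mean was 0.079 ± 0.12 CPM in controls and 0.718 ± 0.372 in YY1 KO hearts (SD, n = 4 each), and the genotypes overlapped at 4 reads in control 3 and 3 in YY1 KO heart 2. It was too low for the filter of the fit. In the fit with no filter the log2 difference was 3.0 ± 0.8, with an edgeR adjusted p of 0.0177. Both values rest on 51 reads, and 2 controls had none. The third endocrine FGF of the mouse, Fgf15, had 0 reads in all 8 hearts.

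Among 25 tested secreted factors of the stressed heart other than the mitokines, 5 rose and 7 fell with YY1 KO (median log2 difference 0.11), against 21.6% and 17.3% of all tested genes. In the Y-positive hearts 4 were higher and 4 lower, against 12.7% and 11.8% of all tested genes there. Without control 2 or YY1 KO heart 3, 3 were higher. Fndc5, the precursor of irisin, fell from 387.23 to 78.1 CPM (-2.31 ± 0.29, edgeR adjusted p = 0.000664), with controls at 312.69 to 478.7 and YY1 KO hearts at 43.1 to 121.14. Apln, the peptide ligand apelin, had a log2 difference of -2.62 ± 0.39 (0.00131), and Vegfa, the endothelial growth factor, one of -0.88 ± 0.12 (0.000954). Stc2, a secreted glycoprotein that is also on the stress response list, rose by 0.99 ± 0.14 (0.000967). Endothelial markers (7 genes) summed to 1253.9 to 1647.5 CPM in controls and 928.74 to 1077.4 in YY1 KO hearts. Of the 7, 5 were lower and 1 higher, against 17.3% and 21.6% of all tested genes, and none was at 0. Their part in the values of Apln and Vegfa was not tested.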
